A study of Macaca fascicularis with 6 samples.

Results

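Undifferentiated cynomolgus monkey iPS cells (cyiPSC) were compared with the cartilage organoids grown from such cells before any transplantation (pre-transplant cyiPS-Cart), in order to describe which gene programs were gained and which were lost on the way from a stem cell to a cartilage cell. All cells of either sample in the matrix that holds both were taken, which gave 2500 cyiPSCs and 3527 pre-transplant cyiPS-Cart cells. Together they made up 6027 of the 7007 distinct cells of the series. A second matrix held a reduced set of 320 pre-transplant cells, of which 300 were also in the larger set, and cells of native articular cartilage and of tissue taken after surgery. Of that matrix the 320 cells of native articular cartilage (cyAC) were used here, as a reference level. Of 13950 genes listed, 4684 were compared: a gene had to reach 50 CPM (read counts scaled to a common total) in 1 of both samples and to be read in 25% or more of the cells of 1 of them.

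Pluripotent stem cells keep up a self-renewal network of transcription factors such as NANOG and SOX2, divide rapidly with a short G1 phase, and grow as epithelial colonies joined by E-cadherin and EpCAM. Chondrocytes are sparse, slowly dividing cells that sit in a matrix they make themselves. That matrix is a network of type II, IX and XI collagen fibrils filled with aggrecan, whose sulphated sugar chains hold water and give cartilage its resistance to compression, and SOX9 with its partners SOX5 and SOX6 drives the genes of both. Chondrocytes in a growth plate go on to hypertrophy, with type X collagen and mineralisation, whereas chondrocytes at a joint surface make lubricin (PRG4) instead.

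Both samples came from 1 cyiPSC line, in which EGFP sits in the AAVS1 locus behind the constitutive CAG promoter. The cyiPSCs were kept on a feeder layer of mouse embryonic fibroblasts, and for differentiation they were moved to Matrigel without feeders. Differentiating cells and organoids were then grown in a chondrogenic medium with BMP2, TGF-β1, GDF5 and ascorbic acid, first attached and then in suspension. Each condition was 1 sample, and both were tagged with hashtag antibodies, pooled and sequenced in 1 library made with TAS-Seq, a whole-transcriptome chemistry for BD Rhapsody beads. The cyAC cells came from the knee cartilage of other monkeys, 3 to 4 years old, and from a second library. The organoids were minced and shaken in Liberase, a collagenase mixture, for several hours in the growth factor medium to free their cells, so a response to digestion and the state of the tissue cannot be told apart. With 1 sample per condition there was no replicate spread and no test was made: differences are described by their size alone, and the intervals given cover counting error only.

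The cyiPSC sample held 415457877 reads, with a median of 143075 reads and 6601 genes per cell, against 240368262 reads, 59249 reads and 3785 genes in pre-transplant cyiPS-Cart. After every cell had been thinned to 30967 reads, which left out 60 cyiPSCs and 353 organoid cells, the median was 4989 genes per cyiPSC and 3381 genes per organoid cell. The organoid sample therefore held fewer genes per cell at an equal number of reads too, though reads are not molecules, and its reads were more concentrated: the 10 most read genes took 8.78% of the reads of cyiPSC and 13.6% of those of pre-transplant cyiPS-Cart. Mitochondrial transcripts took a median of 7.85% of reads per cyiPSC and 5.46% per organoid cell. No cell number was shared between both hashtags.

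The labels were checked against markers of pluripotent cells and of chondrocytes. Reads of at least 5 of 12 pluripotent cell markers were held by 96.5% of cyiPSCs (95% Clopper-Pearson interval 95.7% to 97.2%) and by 0.170% of pre-transplant cyiPS-Cart cells (0.0625% to 0.370%). Reads of at least 5 of 14 chondrocyte markers were held by 2.52% of cyiPSCs (1.94% to 3.21%) and by 98.2% of pre-transplant cyiPS-Cart cells (97.7% to 98.6%). With cells thinned to 1 depth the chondrocyte share among cyiPSCs was 0.984%. At a lower bar of 3 markers, 4.17% of organoid cells passed for pluripotent markers and 17.8% of cyiPSCs for chondrocyte markers, and these shares dropped to 0.945% and 7.83% with thinning. The labels thus went with the markers in both samples, though 11 of the 14 chondrocyte markers and 2 of the 12 pluripotent cell markers were among the genes from which the authors had subtracted background, so the chondrocyte shares rest largely on corrected counts.

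**Figure D1:**
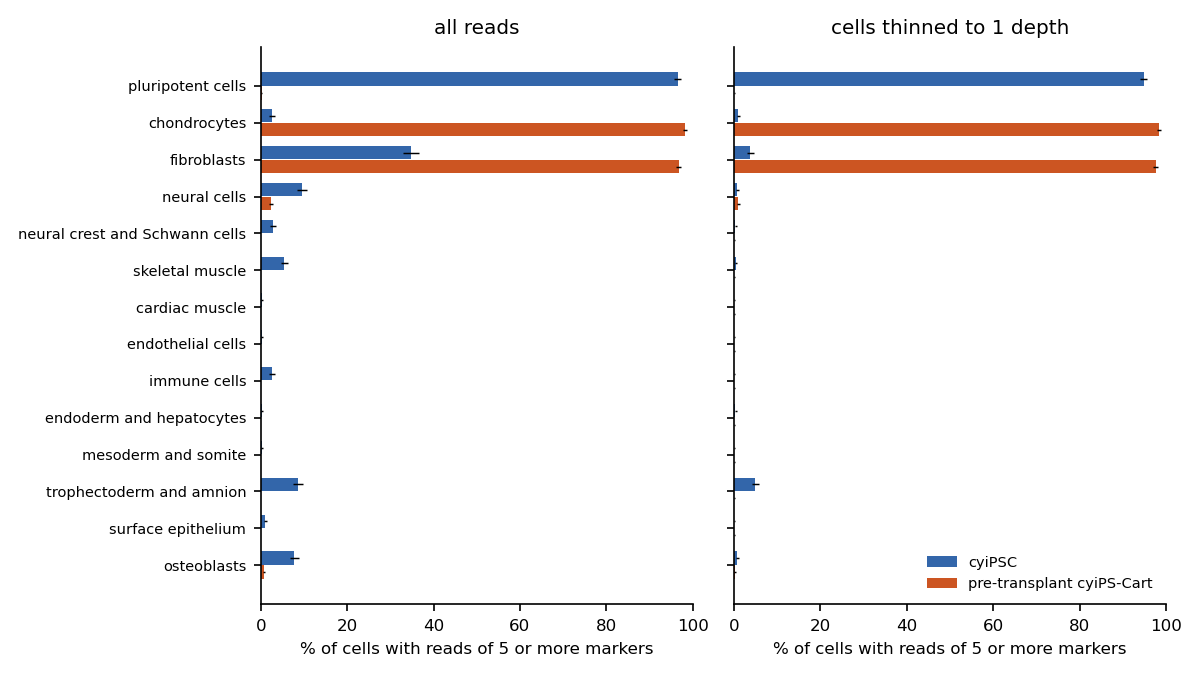
Share of cells with reads of at least 5 markers of each cell type (x axis, %), in cyiPSC (blue) and pre-transplant cyiPS-Cart (orange), with all reads on the left and with every cell thinned to 30967 reads on the right. Bars start at 0 and whiskers are 95% Clopper-Pearson intervals. Pluripotent markers mark the cyiPSCs, chondrocyte and fibroblast markers mark the organoid cells, and of the other lists the trophectoderm and amnion list alone kept over 1% of cyiPSCs after thinning, at 4.92%.

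Reads of each gene were summed over the cells of a sample, scaled to CPM over all listed genes, and compared as the log2 ratio of CPM + 1, pre-transplant cyiPS-Cart over cyiPSC. A gene is called gained where this ratio was at least 1 and lost where it was -1 or less, and strongly so at 3 and -3. Of the 4684 genes, 860 were gained (18.4%) and 1801 were lost (38.5%), while 277 were strongly gained (5.91%) and 283 strongly lost (6.04%). The median log2 ratio over all genes compared was -0.63. Of all genes listed, whether or not they passed the filter on cells, 1572 reached 50 CPM in cyiPSC alone and 741 in pre-transplant cyiPS-Cart alone. Genes just outside the 50 CPM line were ZNF689 and ZNF385D, both at 49.9 CPM in the higher sample with log2 ratios of -0.94 and 3.33, and just inside it were IQCB1 and SIK3, both at 50.0 CPM with -1.16 and 0.84. A gene that reached the line in 1 sample alone had to differ, so counts over a program describe the members that passed and not every gene of the program. The counting interval of no called gene held a ratio of 0.

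The balance of gained to lost genes rested on the scaling. Gained genes were 32.3% of all calls with CPM, 64.7% with TMM scaling, 67.1% with median-of-ratios size factors and 56.2% with ratios centred on their median, because these scalings moved the median log2 ratio from -0.63 to 0.25, 0.32 and 0. Relative to the median of all genes compared, 1212 genes were gained and 943 were lost. The counts of each program below use CPM scaling unless another is named, and are to be read against 18.4% gained and 38.5% lost over all genes. The programs described below with medians far from the overall median kept their direction under all 4 scalings, and those that did not are named where they appear.

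**Figure D2:**
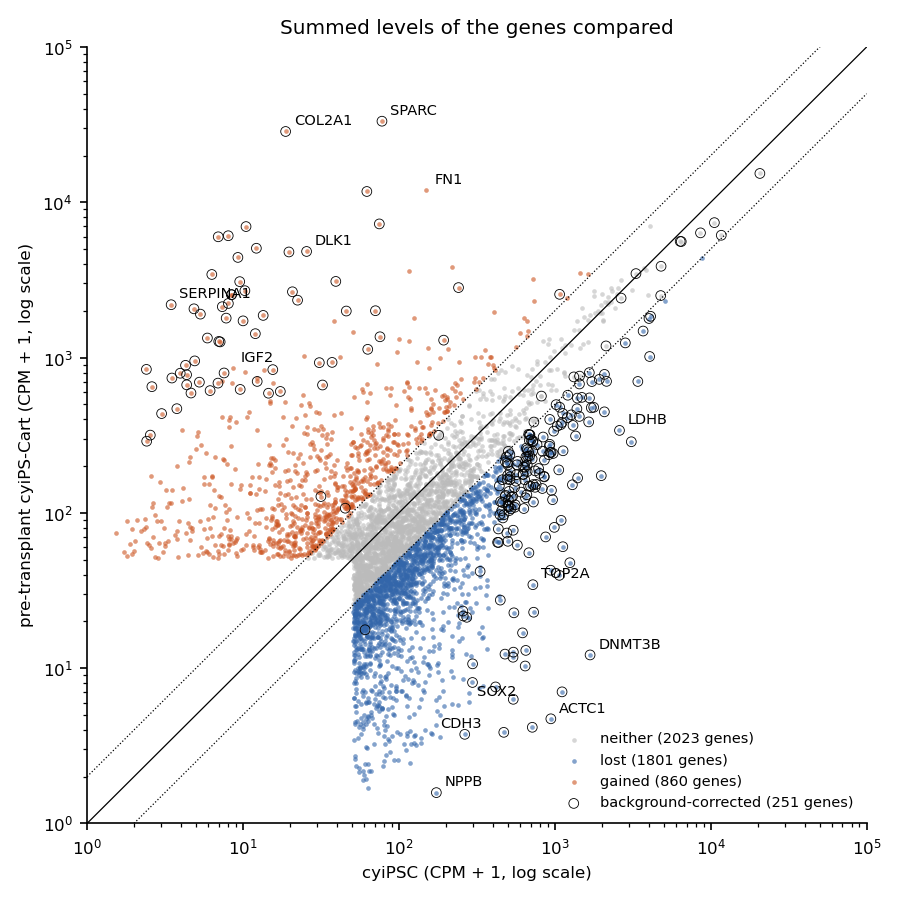
Summed level of each of the 4684 genes compared in cyiPSC (x axis) and pre-transplant cyiPS-Cart (y axis), both as CPM + 1 on log axes. Orange points are the 860 gained genes, blue points the 1801 lost genes, grey points the rest, and black rings mark the genes in which the authors' background correction had acted. The matrix genes COL2A1 and SPARC stand highest on the y axis, at 28572 and 33274 CPM in the organoids, and the ringed genes lie at both edges of the cloud.

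A pair of features of the files bear on the most extreme ratios, and they are given before the genes. The authors subtracted background from some genes, and 259 genes carried its trace: their lowest count above 0 in any cell was between 5 and 318 (median 7), whereas 13398 of the 13691 other genes had a lowest count of 1. These corrected genes included 251 of the 4684 compared, of which 65 were gained and 170 lost. All 20 genes with the highest ratio and 13 of the 20 with the lowest were among them. Outside the corrected genes the ratios ran from -5.66 for PLAU to 6.63 for IGF2. Second, 63 cyiPSCs held reads of at least 5 chondrocyte markers, and 62 of these also held at least 5 pluripotent cell markers, at a median of 328965 reads per cell against 140726 in the other cyiPSCs. A doublet caller marked 14 cells of the whole comparison, all of them among these 63, but marked so few that it was not taken to have worked.

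Those 63 cells held all of the 7380 COL2A1 reads of the cyiPSC sample. They also held 92.7% of its COL11A1 reads, another of the markers that picked them. They held 92.9% of its FMOD reads, 83.6% of its BGN reads and 75.2% of its SERPINA3 reads, and none of these last genes was used to pick the cells. The share was 46.6% for UCMA and 18.0% for RBP4. With these 63 cells and the 6 organoid cells with 5 pluripotent markers left out, the log2 ratio of FMOD went from 9.76 to 12.02, where it rests largely on the pseudocount, since 0.445 CPM was left in the other cyiPSCs. No ratio is given for COL2A1 or COL11A1 without these cells, because reads of both genes helped to pick them. No COL2A1 read was left. The numbers of genes gained (862) and lost (1802) hardly differed. Whether these cells were pairs of cells captured together was not tested.

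The collagens of cartilage were gained together. Of 36 collagen genes listed, 16 passed the filter, 15 of these were gained and none was lost, with a median log2 ratio of 5.69. All 36 listed genes together took 0.0592% of the reads of cyiPSC and 7.24% of those of pre-transplant cyiPS-Cart. Over the 16 that passed, the median cell summed 265 CPM in cyiPSC and 70960 CPM in the organoids. Every organoid cell was above the 90th percentile of the cyiPSCs. COL2A1, the main fibril of hyaline cartilage, stood at 17.8 CPM in cyiPSC and 28572 CPM in pre-transplant cyiPS-Cart, against 47410 CPM in cyAC. COL11A1, which nucleates that fibril, went from 9.46 to 6974 CPM (log2 ratio 9.38) with 5380 CPM in cyAC, and COL9A1, which decorates its surface, from 18.7 to 4785 CPM (7.92) with 6879 CPM in cyAC. The fibrils of looser connective tissue were gained beside them. COL1A1 stood at 73.9 CPM in cyiPSC and 7255 CPM in the organoids (6.60), COL3A1 at 61.3 and 11734 CPM (7.56) and COL5A2 at 8.53 and 3082 CPM (8.34). COL5A2 in cyAC was at 337 CPM, under its level in the organoids. The basement membrane chain COL4A2 was the 1 collagen that was neither gained nor lost, at 84.0 and 66.1 CPM (-0.34).

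The organoid cells varied more in some of these genes than in others. Across pre-transplant cyiPS-Cart cells, COL2A1 had a 10th percentile of 4146 CPM, a median of 29432 CPM and a 90th percentile of 51969 CPM. SPARC, a collagen-binding glycoprotein of matrix-forming cells, ran from 20624 over 32329 to 46540 CPM at the same points. The narrower band of SPARC shows that nearly every organoid cell read it at a like level, at 33274 CPM summed against 76.9 CPM in cyiPSC (log2 ratio 8.74) and 49048 CPM in cyAC. By contrast UCMA, a vitamin K-dependent protein of upper growth-plate cartilage, was without reads in at least 10% of organoid cells and reached 11709 CPM at the 90th percentile. The 90th percentile of PENK, the precursor of enkephalin, was 5318 CPM and that of POSTN (periostin) 5305 CPM, again with 0 at the 10th percentile. Differences of depth between cells were not removed from these ranges. UCMA, PENK and POSTN are also background-corrected genes, with lowest counts above 0 of 15, 10 and 20. Cells without their reads thus include any whose lower counts the authors' correction had set to 0.

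**Figure D3:**
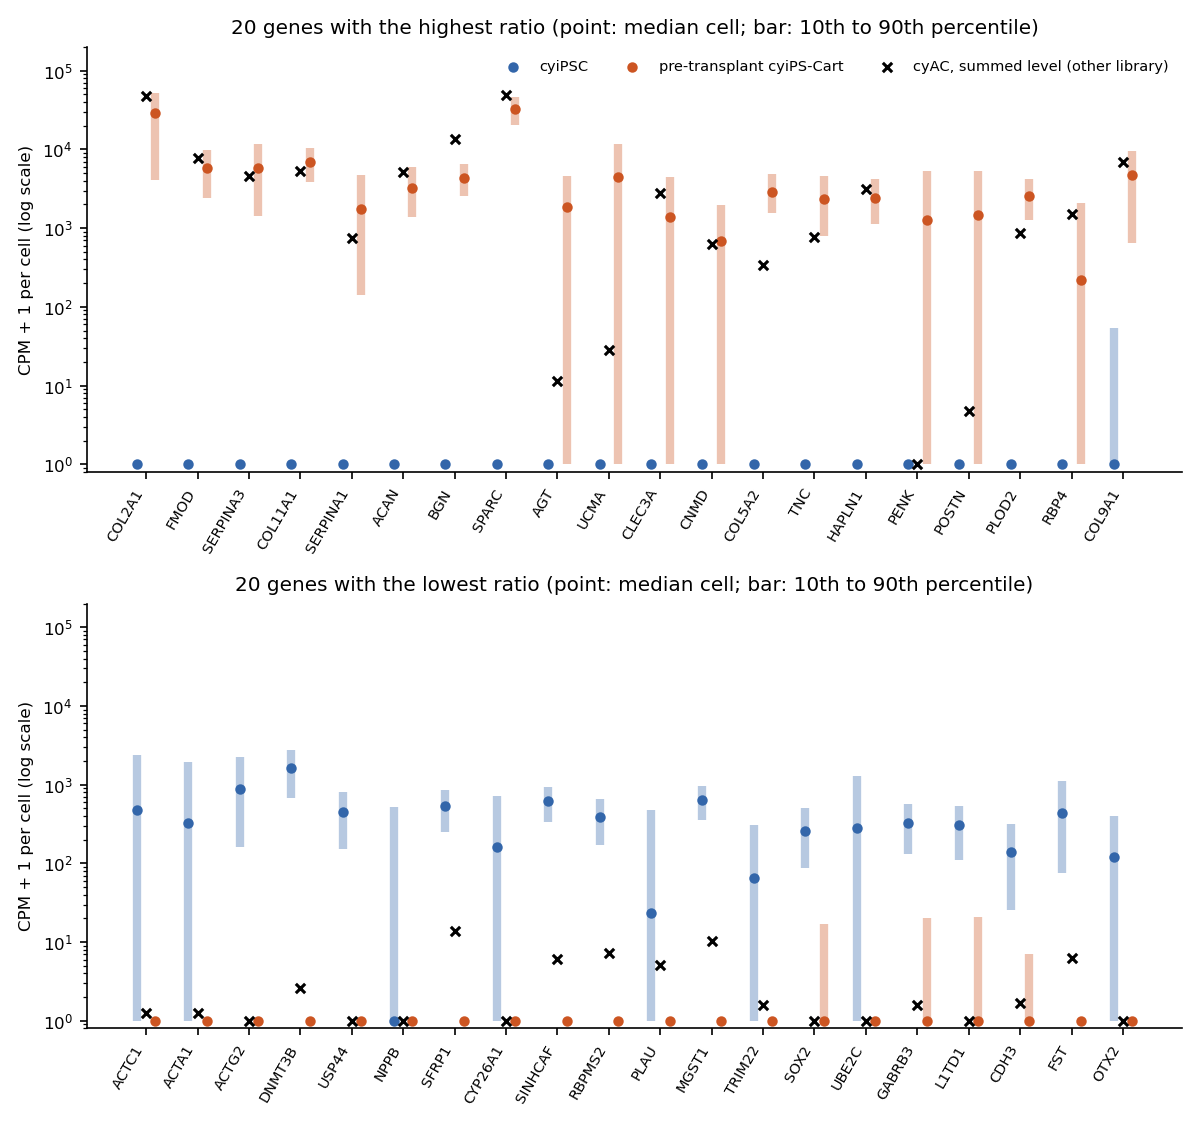
Level per cell, as CPM + 1 on a log axis, of the 20 genes with the highest (top) and the 20 with the lowest (bottom) log2 ratio, in cyiPSC (blue) and pre-transplant cyiPS-Cart (orange). Points are the median cell and bars the 10th to 90th percentile of cells, and crosses give the summed level in cyAC, which came from another library. The median cyiPSC had no reads of any of the 20 gained genes, and the crosses of AGT, UCMA, PENK and POSTN lie far under the organoid medians.

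Proteoglycans were gained with the collagens. All 10 small leucine-rich proteoglycans that passed, of 13 listed, were strongly gained, with a median log2 ratio of 6.06. FMOD (fibromodulin), which binds collagen fibrils and limits their width, went from 5.94 to 5994 CPM (9.76) and BGN (biglycan) from 8.27 to 4413 CPM (8.89). LUM (lumican) stood at 2.50 and 737 CPM (7.72) and OGN (osteoglycin) at 3.35 and 774 CPM (7.48). Native cartilage held more of some members: CHAD, a collagen- and integrin-binding member, was at 342 CPM in the organoids and 15717 CPM in cyAC, and DCN (decorin) at 199 CPM and 6515 CPM. EPYC (epiphycan), known from growth-plate cartilage, went the other way, at 53.3 CPM in the organoids and 1.86 CPM in cyAC. Of 14 genes listed for aggrecan, link proteins and hyaluronan, 7 passed and 6 were gained (median 2.41). These included ACAN, the aggrecan core protein, at 5.31 and 3427 CPM (9.09), HAPLN1, the link protein that pins it to hyaluronan, at 7.45 and 2537 CPM (8.23), and the hyaluronan receptor CD44 (3.90).

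Cartilage matrix glycoproteins were gained as well. Of 55 listed, 40 passed, 37 were gained and none was lost (median 5.05). The summed share of reads of all 55 was 0.341% in cyiPSC and 7.87% in the organoids. FN1 (fibronectin) stood at 149 and 11962 CPM (6.32). TNC (tenascin C) went from 7.43 to 2543 CPM (8.24) and CLEC3A, a lectin known almost solely from cartilage, from 4.33 to 1903 CPM (8.48). CNMD (chondromodulin), an inhibitor of vessel growth in cartilage, went from 1.40 to 838 CPM (8.45), near its 630 CPM in cyAC. MATN3 (matrilin 3) stood at 3.28 and 890 CPM (7.70), whereas MATN1 was below the filter at 1.18 and 0.741 CPM. MGP, which keeps cartilage from calcifying, was at 792 CPM in the organoids and 4594 CPM in cyAC.

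Several of the most gained genes were at a far lower level in native cartilage. UCMA was at 5056 CPM in the organoids and 27.6 CPM in cyAC, POSTN at 2230 and 3.72 CPM, and AGT (angiotensinogen) at 2059 and 10.6 CPM. PENK was at 2125 CPM in the organoids and had no reads in cyAC. Other gained genes were at a like level in both tissues, such as HAPLN1 with 3136 CPM and SERPINA3, an inhibitor of serine proteases, with 6088 CPM in the organoids and 4645 CPM in cyAC. Since cyAC came from another library and other animals, library, animal and tissue cannot be told apart in these pairs.

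Genes that build and export such a matrix were gained too, by smaller ratios. Of 27 genes of collagen processing and crosslinking, 21 passed and 20 were gained (median 2.99). PLOD2, which hydroxylates collagen lysines for crosslinks, went from 9.28 to 2694 CPM (8.03), and LOX (lysyl oxidase), which forms the crosslinks, from 5.15 to 612 CPM (6.64). SERPINH1, the collagen chaperone HSP47, was already at 728 CPM in cyiPSC and stood at 3189 CPM in the organoids (2.13). Of 34 genes of chondroitin and heparan sulfate synthesis, 20 passed, 13 were gained (65.0%) and 1 was lost (median 1.35), and under the other scalings 14 to 16 were gained and none was lost. The sulfate donor enzyme PAPSS2 had the highest ratio of these, at 14.5 and 835 CPM (5.75), followed by XYLT1, which starts the sugar chain, at 14.2 and 203 CPM (3.75). The lost member was EXTL3, which acts on heparan sulfate, at 52.0 and 22.7 CPM (-1.16, and -0.51 with TMM, short of a call). Of 56 genes of the secretory pathway, 52 passed, 24 were gained with CPM scaling (38 with each of the other scalings) and 1 was lost. The retrieval receptors KDELR3 (3.41) and KDELR2 (2.44) and the cargo receptor TMED3 (2.87) had the highest ratios. The ER chaperone HSPA5 was at 735 and 2298 CPM (1.64), and SRP9 of the signal recognition particle was lost (-1.75).

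Among transcription factors, chondrogenic factors were gained wherever they passed the filter: 13 of the 49 listed passed, and all 13 were gained (median 4.17). SOX9 went from 13.8 to 527 CPM (5.15), SOX5 from 5.93 to 55.9 CPM (3.04), and SOX6 stayed below the filter at 0.128 and 8.04 CPM. NFATC2, a calcium-regulated factor found in joint cartilage, had the highest ratio of all 97 transcription factors compared, at 6.80 and 1794 CPM (7.85) with 3599 CPM in cyAC. SNAI2, a repressor of epithelial genes, stood at 6.31 and 413 CPM (5.82). ERG, known from the cells that form joints, stood at 1.21 and 75.1 CPM (5.10), and MEF2C at 1.01 and 55.8 CPM (4.82). Over all 414 members of the transcription factor families, 97 passed, 37 were gained (38.1%) and 26 were lost (26.8%) with CPM scaling, against 18.4% and 38.5% over all genes, with a median of 0.09. With TMM 52 were gained and 17 lost (median 1.15), with size factors 57 and 15 (1.33) and with centring 44 and 20 (0.72). Among the lowest of them were factors of the pluripotent and early embryonic cell: SOX2 at 279 and 5.04 CPM (-5.53), OTX2 at 161 and 2.84 CPM (-5.40), ETV4 (-5.34), SALL2 (-5.28) and MYCN (-5.04).

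No HOX gene passed the filter, of 29 listed. The highest HOX levels in the organoids were those of HOXA10 at 37.6 CPM, HOXB2 at 22.1 CPM and HOXA9 at 18.0 CPM, against 0.469, 0.315 and 0.344 CPM in cyiPSC. These genes pattern the body axis and the limb.

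Genes of hypertrophy were split. Of 18 listed, 6 passed, 4 were gained and 1 was lost (median 2.81). The gained members included ANKH, which exports pyrophosphate and so keeps mineral from forming, at 14.7 and 686 CPM (5.45), ENPP1, which makes pyrophosphate, at 15.1 and 217 CPM (3.76), and the phosphate carrier SLC20A1 at 168 and 613 CPM (1.86). ALPL, the alkaline phosphatase that removes pyrophosphate and that pluripotent cells also express, was the lost member at 128 and 2.21 CPM (-5.32). The defining genes of hypertrophy were not among those that passed. COL10A1 was at 0.166 and 0.183 CPM and RUNX2 at 0.229 and 1.07 CPM.

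Of 18 superficial zone and joint genes, 8 passed, 7 were gained and 1 was lost (median 4.95). FRZB, a secreted WNT inhibitor of articular chondrocytes, went from 2.76 to 468 CPM (6.96) with 3297 CPM in cyAC, and THBS4 (thrombospondin 4) from 7.52 to 687 CPM (6.34). PRG4 reached 692 CPM against 0.874 CPM in cyiPSC, but its reads came from 17.3% of organoid cells, so it failed the filter on cells. The lost member was SFRP2, another WNT inhibitor, at 161 and 29.0 CPM (-2.43). PRG4 was therefore read by a minority of the organoid cells while SPARC and COL2A1 were read by most.

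Reads of COL1A1 split the organoid cells into 928 with and 2599 without, at median depths of 68611 and 56195 reads. COL1A1 is among the background-corrected genes, with a lowest count above 0 of 276, so cells without reads include any whose lower counts the authors' correction had set to 0. COL2A1 was at 10451 CPM in cells with COL1A1 and 36150 CPM in cells without, UCMA at 1932 and 6363 CPM, AGT at 601 and 2669 CPM, DLK1 at 1473 and 6221 CPM and RBP4 at 160 and 853 CPM. SPARC (30388 and 34481 CPM) and SOX9 (610 and 493 CPM) differed less, and POSTN was higher in the cells with COL1A1 (2908 and 1946 CPM). UCMA and AGT were thus lower in cells with COL1A1, whereas PENK, also of wide range per cell, differed less (1846 and 2241 CPM). The split was drawn from the same reads, and ranges within each group were not computed.

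Signaling genes moved in both directions. Of 58 genes of TGF-β, BMP and activin signaling, 27 passed, 13 were gained (48.1%) and 6 were lost (22.2%), against 18.4% and 38.5% over all genes (median 0.94). With TMM 19 were gained and 4 lost (median 1.69), with size factors 19 and 4 (1.74) and with centring 16 and 5 (1.57). The most gained members were ligands and secreted antagonists: CHRDL2, a chordin-like BMP inhibitor, at 2.01 and 435 CPM (7.18), INHBA, the activin A subunit, at 11.3 and 701 CPM (5.83), the BMP antagonist GREM1 at 3.10 and 143 CPM (5.14) and TGFB2 at 2.24 and 108 CPM (5.07). Lost members included FST (follistatin), the activin antagonist, at 541 and 11.7 CPM (-5.42), the activin receptor ACVR2B at 53.6 and 2.54 CPM (-3.95), and the BMP target genes ID3 at 271 and 20.2 CPM (-3.68) and ID1 at 456 and 102 CPM (-2.14). The ID genes were thus lower in organoids that had been fed BMP2.

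The IGF axis was gained. Of 21 listed, 11 passed, 8 were gained and 3 were lost (median 5.12). The binding proteins IGFBP5 (6.14 and 1260 CPM, 7.47), IGFBP7 (11.0 and 1424 CPM, 6.89) and IGFBP3 (16.4 and 604 CPM, 5.12) and the fetal growth factor IGF2 (7.58 and 851 CPM, 6.63) were among the gained. IGF2BP3, an RNA-binding protein of fetal and stem cells, was lost at 620 and 15.9 CPM (-5.20), as was IGFBP2 (-2.71). IGF2 is also imprinted, and of 18 imprinted genes 8 passed, 6 were gained and 1 was lost (median 2.54). DLK1, a transmembrane ligand of fetal tissues, went from 24.6 to 4821 CPM (7.56), far over its 16.7 CPM in cyAC. SNRPN was the lost member (-3.06), with the reservation that its coding part is nearly the same as that of SNRPB (-2.32).

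Few WNT, FGF or hedgehog genes passed. Of 44 WNT genes 5 passed, too few to set apart from all genes (18.4% gained, 38.5% lost). With CPM scaling FRZB was gained (20%) and SFRP1, a WNT inhibitor of stem cells at 540 and 5.30 CPM (-6.43), and SFRP2 were lost (40%), and with TMM or size factors 6 passed, 3 gained and 2 lost. The median of the 5 was -0.26 and turned positive under each of the other scalings, as did the ratio of TCF7L2, the middle gene. Of 36 FGF and hedgehog genes 11 passed, 5 were lost (45.5%, against 38.5% over all genes) and 1 was gained with CPM scaling (median -0.995). With TMM or size factors 7 passed the filter, of which 2 were lost and 2 gained, while the ratios of the lost genes stayed low (ETV4 -4.75, FGF12 -4.12, ETV1 -3.80 and DUSP6 -2.33 with TMM). The lost members were the FGF-response genes ETV4 (172 and 3.27 CPM, -5.34), ETV1 (-4.36) and DUSP6 (68.2 and 7.89 CPM, -2.96) with FGF12 (-4.66) and FGF2 (52.6 and 12.3 CPM), while the feedback inhibitor SPRY2 was gained (97.0 and 323 CPM, 1.72).

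Genes of the hypoxia response were gained. Of 23 listed 11 passed, 9 were gained and 1 was lost (median 2.03), and 98.6% of organoid cells had a summed level above the 90th percentile of the cyiPSCs. NDRG1 stood at 8.59 and 622 CPM (6.02), P4HA1, which hydroxylates collagen prolines, at 86.2 and 572 CPM (2.72) and HIF1A at 309 and 1002 CPM (1.69). LOX and P4HA1 belong to collagen processing as well. DDIT4 was lost at 86.0 and 12.1 CPM (-2.73). Glycolysis, which low oxygen is known to raise, had calls near the shares over all genes (18.4% gained, 38.5% lost): of 20 listed 13 passed, 2 were gained (15.4%) and 5 were lost (38.5%), with a median of -0.38 that turned to between 0.25 and 0.33 under the other scalings. Pairs of isoforms were called in opposite directions. LDHB was lost (2598 and 338 CPM, -2.94) and LDHA gained (383 and 1000 CPM, 1.38), and likewise PFKM was lost (80.4 and 13.2 CPM, -2.52) and PFKP gained (11.6 and 61.3 CPM, 2.31). SLC2A3, the high-affinity glucose transporter GLUT3, was lost at 951 and 139 CPM (-2.77).

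Immediate early genes of the AP-1 group were gained: of 19 listed 13 passed, 11 were gained (84.6%, against 18.4% over all genes) and 1 was lost (median 2.48), and under each of the other scalings 11 were gained and none was lost. FOS had reads in 20.2% of cyiPSCs and 55.5% of organoid cells, at 31.4 and 665 CPM (4.36), and IER3 (5.34) and NR4A2 (4.91) were gained with it. These genes answer handling of cells within the hour, and only the organoids are known to have been digested for hours, so digestion and tissue cannot be told apart here. KLF4 counts in this group and among pluripotency factors and chondrogenic factors, and stood at 11.4 and 735 CPM (5.89). Metallothioneins and secretory genes of stress were gained in 8 of the 11 that passed, of 21 listed (median 1.56), with SERPINA3 (9.56), SERPINA1 (9.31), CHI3L1, a glycoprotein of stressed and healthy chondrocytes (4.91 and 1335 CPM, 7.82), and the complement protease C1S (5.76) the highest. Of 56 matrix proteases and inhibitors 18 passed, 15 were gained and 2 were lost (median 3.39). HTRA1, a serine protease of cartilage matrix, went from 37.6 to 1715 CPM (5.47), MMP3 from 7.18 to 355 CPM (5.44) and the inhibitor TIMP3 from 74.6 to 1360 CPM (4.17). The lost members were the urokinase PLAU (182 and 2.62 CPM, -5.66) and ADAMTS19 (-4.51).

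Antigen presentation genes were lost about as often as all genes compared: of 28 listed 9 passed, none was gained and 4 were lost with CPM scaling (44.4%, against 38.5% over all genes, and 2 and 2 with each of the other scalings), and the median of -0.94 became 0.16 with TMM and 0.20 with size factors. B2M, the light chain of MHC class I, stood at 669 and 306 CPM (-1.12, and -0.46 with TMM, short of a call), the proteasome activator PSME2 at 218 and 36.7 CPM (-2.54) and the interferon-induced MX1 at 77.7 and 1.34 CPM (-5.07).

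Of the programs lost, pluripotency factors had the lowest median. Of 32 listed 14 passed, 13 were lost and KLF4 alone was gained (median -5.16), and 99.0% of organoid cells had a summed level under the 10th percentile of the cyiPSCs. DNMT3B, the de novo DNA methyltransferase of stem cells, went from 1682 to 11.2 CPM (-7.11) and had the lowest ratio. USP44, a deubiquitinase of stem cells, stood at 470 and 2.86 CPM (-6.93), and L1TD1, an RNA-binding protein of stem cells, at 324 and 6.43 CPM (-5.45). SALL4 (117 and 2.96 CPM, -4.90) and PRDM14 (137 and 5.30 CPM, -4.46) followed. NANOG and LIN28A were below the filter on level, at 19.9 and 0.499 CPM and at 21.98 and 0.557 CPM. The telomere-binding TERF1 was lost less deeply, at 1985 and 172 CPM (-3.52).

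Chromatin and DNA methylation genes were lost with them: of 40 listed 33 passed, and 27 were lost with CPM scaling, 19 with TMM and with size factors and 21 with centring (median -2.03). CHD7, a remodeller, stood at 219 and 4.90 CPM (-5.22), HMGB2 at 939 and 41.7 CPM (-4.46) and HELLS at 326 and 15.7 CPM (-4.29). MBD2, a reader of methylated DNA, was gained (15.8 and 82.1 CPM, 2.31), as was ANP32B (1.23). SINHCAF, a subunit of the SIN3 corepressor complex, was among the 20 lowest genes at 645 and 9.31 CPM (-5.97).

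**Figure D4:**
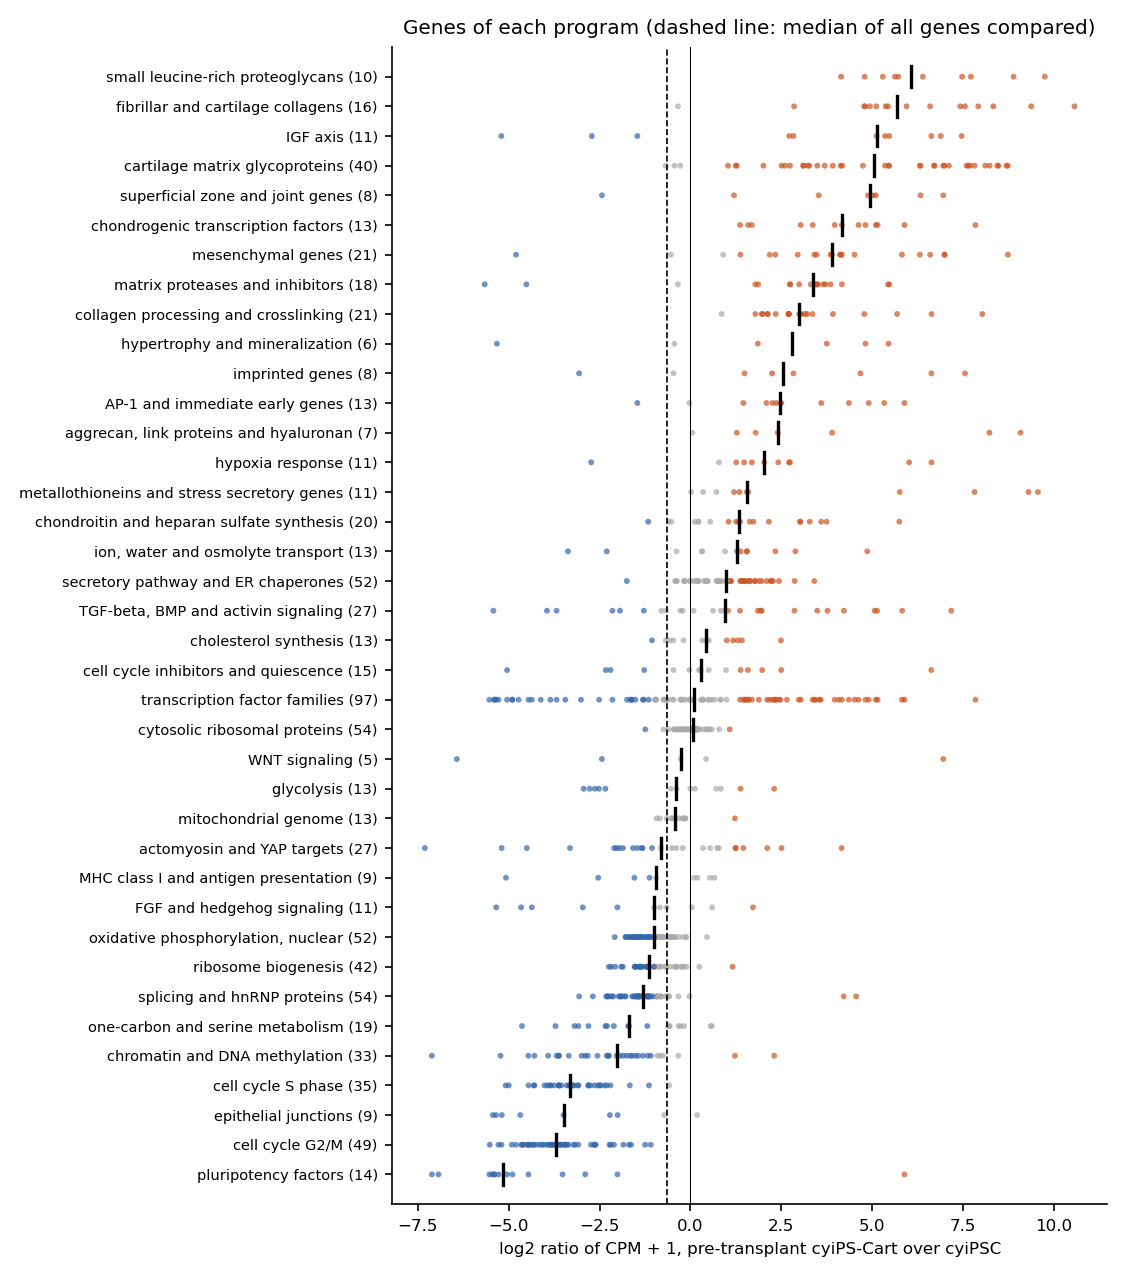
Log2 ratio of CPM + 1, pre-transplant cyiPS-Cart over cyiPSC (x axis), of every gene compared in each program (rows, with the number compared in brackets). Each point is 1 gene, orange where gained, blue where lost and grey otherwise, black ticks are program medians, and the dashed line is the median of all genes, -0.63. Small leucine-rich proteoglycans (median 6.06) stand at the top, pluripotency factors (-5.16) at the bottom, and ribosomal proteins (0.07) lie in a narrow band.

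Most epithelial junction genes that passed the filter were lost, and most mesenchymal genes that passed were gained. Of 28 epithelial junction genes 9 passed, 7 were lost and none was gained (median -3.49). CDH3 (P-cadherin) went from 161 to 2.75 CPM (-5.44), EPCAM from 237 to 4.83 CPM (-5.35) and KRT19 from 145 to 3.01 CPM (-5.19), whereas CDH1 (E-cadherin) kept 22.6 of 109 CPM (-2.21). Of 29 mesenchymal genes 21 passed, 18 were gained and 1 was lost (median 3.90), with SPARC, the annexin ANXA1, TGFBI (6.99) and the protease FAP (6.60) the highest and VIM (vimentin) at 219 and 3833 CPM (4.12). The lost member was CDH2 (N-cadherin), often taken as mesenchymal, at 172 and 5.21 CPM (-4.80).

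The lowest 3 ratios of all genes were those of actins of muscle. ACTC1 stood at 942 CPM in cyiPSC and 3.72 CPM in pre-transplant cyiPS-Cart (-7.64), with reads in 83.1% and 1.98% of cells, ACTA1 at 716 and 3.16 CPM (-7.43) and ACTG2 at 1112 and 6.03 CPM (-7.31). Actin genes are nearly identical in their coding parts, so how the reads were divided between them is uncertain. NPPB, the natriuretic peptide of heart muscle, had reads in 31.0% of cyiPSCs (173 and 0.578 CPM, -6.78). Of 35 actomyosin genes and YAP targets 27 passed, with 6 gained (22.2%) and 13 lost (48.1%) with CPM scaling, beside 18.4% and 38.5% of all genes. The balance turned with the scaling, to 11 gained and 8 lost with TMM or size factors and 9 and 8 with centring, and the median of -0.81 became 0.01 with TMM and 0.06 with size factors. CNN1 (calponin, 183 and 4.02 CPM, -5.19) and MYL9 (265 and 25.8 CPM, -3.31) were lost and CCN2 was gained (49.6 and 287 CPM, 2.51). The nuclear lamins went opposite ways: LMNB1 was lost (216 and 8.57 CPM, -4.50) and LMNA gained (62.1 and 1129 CPM, 4.16).

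Cell cycle genes were lost almost without exception. Of 54 genes of G2 and mitosis 49 passed and all 49 were lost (median -3.71), and of 45 genes of S phase 35 passed and 34 were lost (median -3.31). With TMM these were 42 of 45 and 31 of 33, with size factors 41 of 45 and 29 of 32, and with centring 46 of 49 and 33 of 35. The median cell summed 9300 CPM of the G2 and mitosis genes in cyiPSC (10th to 90th percentile 5778 to 17996 CPM) and 903 CPM in pre-transplant cyiPS-Cart (444 to 1633 CPM). Only 0.255% of organoid cells were above the 90th percentile of the cyiPSCs, and 98.4% were below their 10th percentile. UBE2C, a ubiquitin-conjugating enzyme of mitotic exit, went from 538 to 10.8 CPM (-5.52), CCNB1 (cyclin B1) from 478 to 11.3 CPM (-5.28) and CDC20 from 295 to 7.08 CPM (-5.20). CDCA7 (126 and 2.73 CPM, -5.08) and the replication helicase MCM3 (344 and 14.8 CPM, -4.45) were among the lowest of S phase. MKI67, the usual marker of dividing cells, was at 238 and 20.8 CPM (-3.45) and TOP2A at 722 and 33.4 CPM (-4.39), both above 0 in the organoids. The lower sums went with fewer cells that had any reads: BUB1, a mitotic checkpoint kinase in which no background correction was seen, had reads in 93.6% of cyiPSCs and 14.3% of organoid cells, at the unequal depths given above.

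Inhibitors of division were mixed. Of 23 listed 15 passed, 5 were gained (33.3%) and 4 were lost (26.7%) with CPM scaling, beside 18.4% and 38.5% of all genes (median 0.29), and 7 and 3 under each of the other scalings. CDKN1A, the p21 inhibitor of cyclin-dependent kinases, went from 5.91 to 683 CPM (6.63), BTG2 from 33.1 to 192 CPM (2.50) and GADD45B was gained as well (1.98). CCNG1, a p53 target like CDKN1A, was lost at 855 and 169 CPM (-2.33).

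Ribosomal proteins made nearly the same share of reads in both samples, 7.73% in cyiPSC and 8.49% in the organoids. All 54 listed passed and 52 were neither gained nor lost with CPM scaling (median 0.07), which set them above the median of all genes. RPLP0 of the ribosomal stalk stood at 4071 and 7062 CPM (0.79), and with CPM scaling RPL10L (1.08) and RPL7L1 (-1.24) were the only called members. With TMM or size factors 7 members were gained and with centring 6, RPLP0 among them (1.46 with TMM), and none was lost. RPL10L is nearly identical to RPL10, so its reads are uncertain. The genes that make ribosomes were lower: of 45 listed 42 passed, 23 were lost with CPM scaling (54.8%, against 38.5% over all genes) but 5 with each of the others, and 1 was gained (median -1.14). NAT10 (117 and 24.0 CPM, -2.24) and LYAR (153 and 33.0 CPM, -2.18) had the lowest ratios. Of 58 splicing and hnRNP genes 54 passed and 36 were lost with CPM scaling (66.7%, against 38.5% over all genes) but 14 with each of the others (median -1.29), PTBP2 among them (150 and 22.5 CPM, -2.68). Both gained splicing genes were muscleblind proteins, MBNL1 at 23.4 and 575 CPM (4.56) and MBNL2 at 13.6 and 271 CPM (4.22), regulators known to shift splicing toward the pattern of differentiated cells.

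Nuclear genes of oxidative phosphorylation lay near the median of all genes. Of 54 listed 52 passed and 27 were lost with CPM scaling (51.9%, against 38.5% over all genes), against 3 to 6 with the other scalings. Their median was -1.01, and -0.38 relative to the median of all genes. ATP5IF1, the inhibitor of the ATP synthase, stood at 186 and 43.2 CPM (-2.08) and NDUFA4 at 922 and 267 CPM (-1.78). The 13 genes of the mitochondrial genome took 7.72% and 5.63% of reads, with a median of -0.43 that turned to between 0.20 and 0.29 under the other scalings, and the authors had removed cells by mitochondrial share in both samples. ND6, read from the other strand of the mitochondrial genome than its neighbours, was gained (22.2 and 53.4 CPM, 1.23). The methods do not say whether strand was used for these counts, so reads from the opposite strand may be among those of ND6. One-carbon and serine metabolism, which feeds nucleotide synthesis, had 19 of 23 genes passing, 11 lost (57.9%, against 38.5% over all genes) and none gained with CPM scaling (median -1.69), led by SHMT1 (89.1 and 2.63 CPM, -4.63), GLDC (57.5 and 3.47 CPM, -3.71) and MTHFD1 (225 and 23.8 CPM, -3.19). With TMM 8 were lost and 2 gained (median -0.52), with size factors 6 and 2 (-0.47) and with centring 10 and 2 (-1.06). Cholesterol synthesis leaned the other way, with 13 of 19 passing, 5 gained (38.5%) and 1 lost (7.69%), against 18.4% and 38.5% over all genes (median 0.43). With TMM or centring 7 were gained and with size factors 8, and none was lost. INSIG1 (107 and 604 CPM, 2.49) and MSMO1 (166 and 445 CPM, 1.42) were among the gained.

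**Figure D5:**
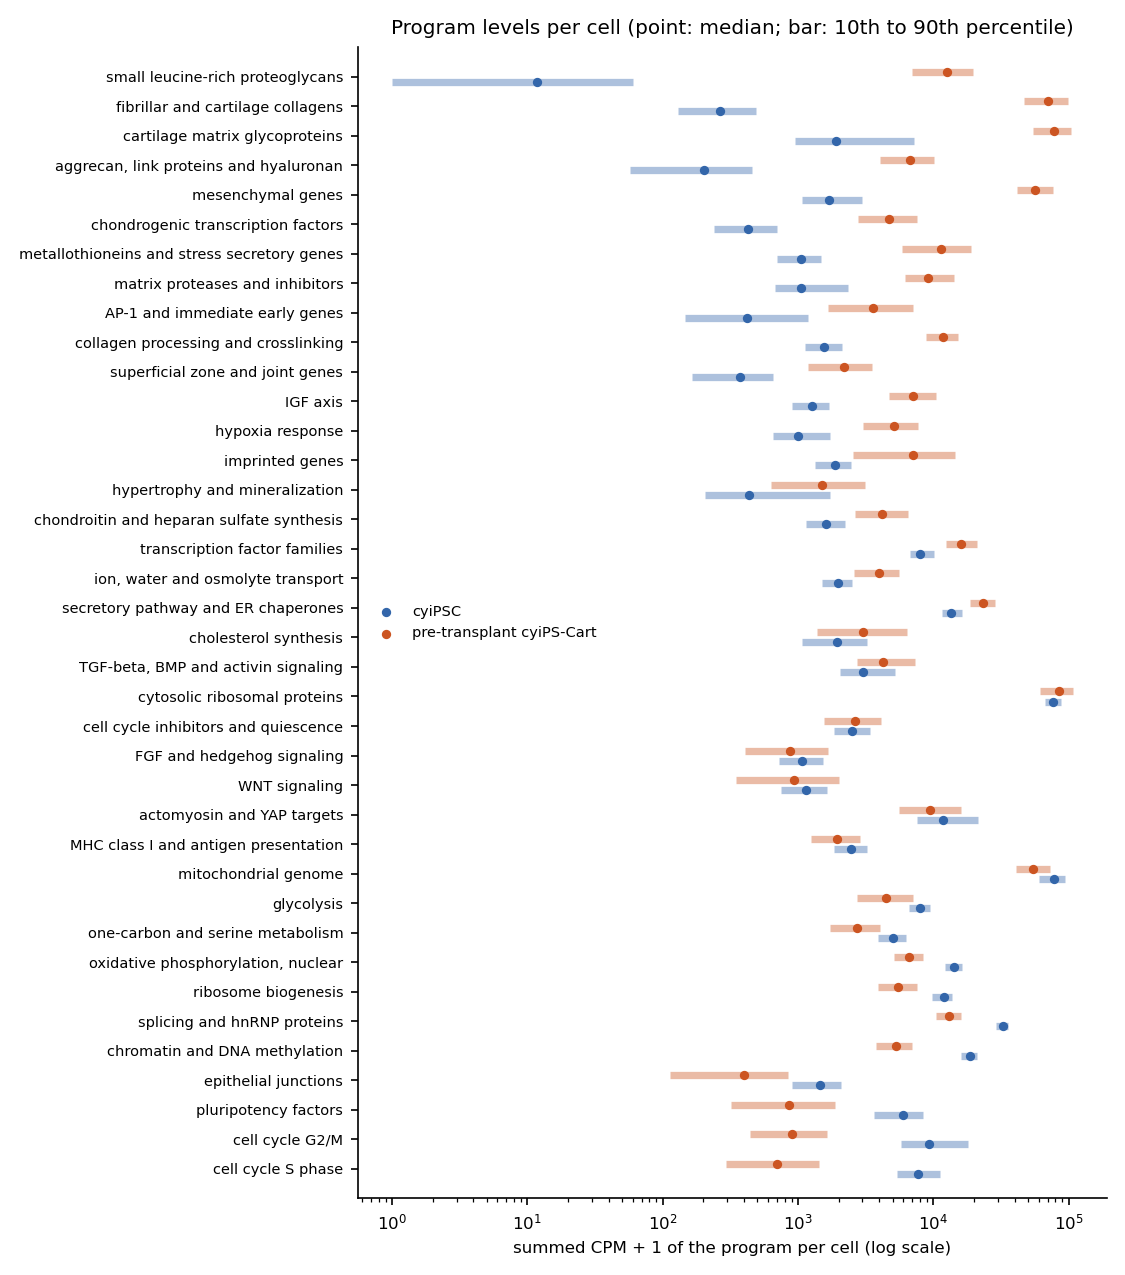
Summed level of each program per cell (x axis, CPM + 1 on a log axis) in cyiPSC (blue) and pre-transplant cyiPS-Cart (orange). Points are the median cell and bars the 10th to 90th percentile of cells. The bars of the collagens (median 265 and 70960 CPM) and of the G2 and mitosis genes (9300 and 903 CPM) do not overlap, whereas those of ribosomal proteins and of cell cycle inhibitors do.

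Ion, water and osmolyte transport had 13 of 24 genes passing, 7 gained (53.8%) and 2 lost (15.4%), against 18.4% and 38.5% over all genes (median 1.28). With TMM 8 were gained and 1 lost, with size factors 10 and 1 and with centring 8 and 2. TRPV4, a channel by which chondrocytes sense swelling and load, went from 3.05 to 117 CPM (4.87), and the sodium pump subunit ATP1B1 from 153 to 1144 CPM (2.89). The lost members were genes that handle organic osmolytes, the taurine transporter SLC6A6 (60.7 and 4.97 CPM, -3.37) and the sorbitol-forming AKR1B1 (523 and 105 CPM, -2.30). CYP26A1, which degrades retinoic acid, was among the 20 lowest of all genes (263 and 2.75 CPM, -6.14), whereas RBP4, which carries retinol, was among the 20 highest (648 CPM in the organoids, 7.96).

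Of the lists for other lineages, fibroblasts aside, the neural list had the highest share in the organoids, with reads of 5 or more markers in 2.32% of cells before thinning and 0.977% after it. Among cyiPSCs the neural shares were 9.56% and 0.656%, so this list did not set the organoids apart. Reads of 5 or more trophectoderm and amnion markers were held by 216 cyiPSCs (8.64%, and 4.92% after thinning) and by 0 of 3527 organoid cells, which allows a share of up to 0.105% (95% Clopper-Pearson bound). Of these 216 cells, 201 also held at least 5 pluripotent cell markers, at a median of 168302 reads against 141174 in the other cyiPSCs. TFAP2A and GATA3, early factors of both tissues, each had reads in 10.6% of cyiPSCs, at 38.2 and 16.9 CPM. The list did not go 1 way: of its 14 members only IGFBP3 passed the filter, and it was gained (5.12). The summed level of the list was 182 CPM in cyiPSC and 608 CPM in the organoids. Skeletal muscle markers were held by 136 cyiPSCs (5.44%) before thinning and 0.410% after it, so that share moved with depth. Fibroblast markers, which mesenchymal chondrocytes share in large part, were held by 96.8% of organoid cells and 34.8% of cyiPSCs before thinning, and by 97.6% and 3.81% after it.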

How the data were processed

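Single-cell RNA-seq was analysed for 2 of 5 samples of the series, with cyAC as a reference level. Matrices of read counts, genes by cells and with background already subtracted, were deposited by the authors. Per the methods, reads were aligned with Bowtie2 to Ensembl cDNA and ncRNA sequences of Macaca_fascicularis_6.0, cells were taken from a knee plot, demultiplexed by hashtags and filtered on mitochondrial share, and background was subtracted by a distribution-based method. No molecular identifiers are described, so counts are reads and not molecules. The submitters' processing notes name cutadapt 3.4, Bowtie2 2.4.2, R 3.6.3 and GRCh38. The hashtag counts were not used, and the hashtag of each sample was taken from the authors' code.

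The counts were summed per sample and scaled to CPM with python 3.11.15, numpy 2.4.6, scipy 1.17.1 and pandas 2.3.3. The pseudocount was 1 CPM. Intervals are exact Poisson (CPM) or Clopper-Pearson (shares) at 95%. TMM factors came from edgeR 4.0.16 in R 4.3.3, doublet scores from Scrublet in scanpy 1.11.5 and figures from matplotlib 3.10.9. Scrublet marked 14 of 6027 cells (0.232%), which was not taken to have worked, and no cell was removed as a doublet. The calculation was tested on simulated data. Gene symbols were used as deposited, and 96.7% of those compared were found in a RefSeq table (T2T-MFA8v1.1, names only). Promoter and protein features were planned but not computed, since no sequence tables were given.

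The compared samples, the gene lists and the alternatives were chosen with earlier results of these data known. Genes were named by rule: the 20 highest and 20 lowest ratios, the 10 highest and 10 lowest transcription factors, up to 4 members per program in the direction of its median and up to 2 called members the other way, those nearest the filter and 5 base genes. Other genes were named after their values were seen, and some genes the rule names are not reported here.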

Additional observations from a re-analysis of the deposited data

How the results depend on the processing

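No paired analysis was possible because each condition was 1 sample, and for the same reason no replicate could be left out. Of 15 alternative settings, 12 were planned and 3 were chosen after seeing the data, and none reversed the direction of a gene named by the rule and called gained or lost. Genes named outside the rule were not rerun. The programs whose median changed sign with the scaling were glycolysis, the mitochondrial genome, WNT signaling, antigen presentation and the actomyosin genes. With a pseudocount of 10 CPM, 177 genes were strongly gained and 121 strongly lost. Without the filter beyond 1 CPM, 1753 were gained, 4192 lost and 547 strongly lost, and at 200 CPM the counts were 351 gained, 484 lost, 155 strongly gained and 83 strongly lost. With TMM, 1394 were gained, 761 lost and 159 strongly lost. With size factors, 1455 were gained, 712 lost, 420 strongly gained and 150 strongly lost. With centring, 943 were lost and 188 strongly lost. Organoid cells with 3 pluripotent markers (4.17%) were 0.113% when a marker needed 5 reads, 0.170% with 5 markers and 0.945% with thinning. The cyiPSCs with 3 chondrocyte markers (17.8%) were 10.2%, 2.52% and 7.83%. These values move by construction with the filter, the scale or the bar. With 1 culture for each condition, no value here carries an error between cultures.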
